A study of Homo sapiens with 6 samples.

Results

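Genes of glycolysis and lactate metabolism were described after knockdown of TCF19 in Ishikawa cells, an established line from a human endometrial cancer. The list held 35 genes chosen by symbol from the 58735 genes of the deposited count table: hexose transporters, the enzymes of each step from glucose to lactate, the enzymes that set fructose 2,6-bisphosphate, the lactate transporters, the pyruvate dehydrogenase kinases and phosphoglucomutase 1. RNA was sequenced in bulk 48 hours after lipofection of the cells with an siRNA against TCF19 (siTCF19, 3 libraries) or a negative control siRNA (siNC, 3 libraries). Both groups came from the same line, grown in DMEM with fetal bovine serum. The labels do not say whether the libraries of each group were grown separately. The p-values therefore cover just the variation among these libraries, which could be purely technical.

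Glycolysis breaks glucose down to pyruvate in the cytosol. Glucose enters through facilitative transporters, is trapped by hexokinase, passes the control point of phosphofructokinase and is split by aldolase into triose phosphates, from which the lower enzymes make ATP and pyruvate. Lactate dehydrogenase turns pyruvate into lactate, which leaves through monocarboxylate transporters, while pyruvate dehydrogenase kinases restrain the entry of pyruvate into the mitochondrial citric acid cycle. Many tumour cells keep a high glucose uptake and release lactate even with oxygen present.

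Library totals ran from 14680022 to 15529688 counts in siTCF19 and from 14872698 to 16244705 in siNC. TCF19 had 675, 529 and 606 counts in the siTCF19 libraries, against 2572, 2905 and 2756 in the siNC libraries, so the target was low in every siTCF19 library (log2 fold change -2.20 ± 0.06, SE). Of all counts, mitochondrial genes held 3.92% to 4.08% in siTCF19 and 3.49% to 3.65% in siNC, and the part of this difference in the results below was not tested. Of 10 markers of endometrial epithelium, 8 passed the filter on low counts, among them EPCAM, PAX8 and KRT8, while the hormone receptors ESR1 and PGR averaged at most 0.155 CPM in either group. The 10 summed to 2971 to 3111 CPM in siTCF19 and 3058 to 3197 CPM in siNC. Of the 8 tested, 4 were called higher (CDH1, KRT19, SOX17 and MUC1) and 2 lower (KRT8 and KRT18). Markers of blood, endothelial and stromal cells summed to 140.0 to 152 CPM in siTCF19 and 186 to 187 CPM in siNC over 10 genes, mostly COL1A2, and of the 4 tested, 2 rose (VWF and COL1A1) and 2 fell (COL1A2 and CDH5). DCN was at 0 in every library and PTPRC, CD3E, CD14 and PECAM1 were under 1 CPM on average in both groups. The part of these markers in the results was not tested.

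Transcripts of most steps from glucose to lactate were lower in siTCF19. Of the 35 genes, 33 passed the filter on low counts, and of these 19 fell, 3 rose and 11 were not called (edgeR's quasi-likelihood test, adjusted p under 0.05 over all 17299 tested genes). Among all tested genes, 20.8% were called lower and 20.7% higher. Scaling by library size alone gave 15 falls and 5 rises in the list, and 16.4% lower and 26.1% higher over all tested genes, whose median then moved to 0.06. The median log2 fold change of the 33 genes was -0.22, beside 0.00 over all tested genes. Only PFKFB3 and HK2 fell by at least 2-fold, and 13 of the 19 falls were smaller than 0.5 on the log2 scale. The 3 rises were in SLC2A12, ENO2 and PFKFB2, each a gene with a more abundant relative in the same group. The libraries of the groups did not overlap in CPM (the usual depth-scaled count, with TMM factors) for 28 of the 33 genes, beside 49.2% of all tested genes. That share covers genes of all levels and was not counted for genes as abundant as these. In bulk RNA, fewer expressing cells and less RNA per cell cannot be told apart. The authors' deposited table lists 17 of the 35 genes lower and 3 higher at an adjusted p under 0.05, from the same libraries.

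**Figure D1:**
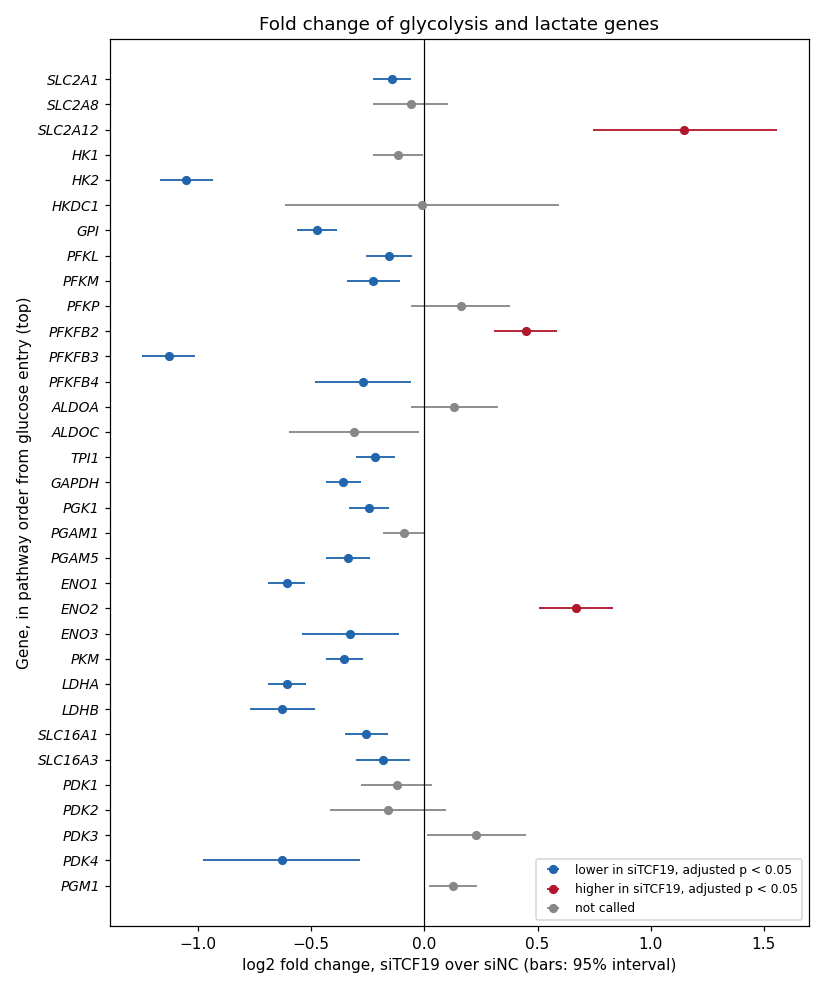
The log2 fold change (siTCF19 over siNC) of the 33 tested genes is plotted down the pathway, with bars for the 95% interval. Blue points are the 19 genes called lower, red points the 3 called higher and grey points the 11 not called, and PFKFB3 (-1.13) and HK2 (-1.05) lie farthest to the left.

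The falls reached the most abundant genes. Levels between genes are compared here as FPKM, the CPM divided by the exonic length in kilobases, scaled with the same TMM factors. This length covers all annotated exons of a gene, and the transcript forms made in these cells were not tested. Of the 10 members with a mean of at least 50 FPKM, 9 fell and 1, PGAM1, was not called, with log2 fold changes of -0.61 to -0.09. The 9 include PGAM5, a protein phosphatase with no place in glycolysis, at a mean of 51.1 FPKM over all libraries. Abundant genes were also called lower more often across the whole table: of the 849 tested genes at that level, 49.4% fell and 19.8% rose, with a median log2 fold change of -0.12 beside -0.35 for the 10 members. Among the 23 tested members under that level, 10 fell, 3 rose and 10 were not called. The level of 50 FPKM was chosen after the values were seen. Summed over the list, the 35 genes took 1.03 ± 0.0227% of all counts in siTCF19 and 1.27 ± 0.0273% in siNC (SD, n = 3 each), and their summed level was 2345 ± 59.4 FPKM in siTCF19, against 2960.0 ± 82.7 FPKM in siNC.

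Glucose entry rested on 1 gene at the RNA level. SLC2A1 (GLUT1), the widely expressed glucose transporter (ENSG00000117394, chromosome 1, 42925375 to 42959176, minus strand; all gene positions are on hg38), had 910.2, 949 and 958 CPM in the siTCF19 libraries, against 1004, 1077 and 1029 CPM in the siNC libraries. The groups did not overlap, but the difference was small, with a log2 fold change of -0.14 ± 0.04 (SE) and an edgeR adjusted p of 0.00468. The call was not made without siTCF19 replicate 1 (edgeR adjusted p = 0.0554) or with scaling by library size alone (0.0917). SLC2A1 made up 95.5 ± 0.178% of the summed FPKM of the 5 transporters in siTCF19 and 96.0 ± 0.303% in siNC.

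The minor transporters differed among themselves. SLC2A12 (GLUT12) had 5.12, 5.88 and 5.16 CPM in siTCF19, against 2.89, 2.35 and 2.05 CPM in siNC. Every siTCF19 library was above every siNC library, and SLC2A12 showed the largest rise in the list, with a log2 fold change of 1.15 ± 0.20 (SE, edgeR adjusted p = 8.67e-06). Of its exonic bases, 38.9% overlap TBPL1 on the other strand, and since no source used here states the strand setting of the counting, reads of the overlap cannot be assigned. TBPL1 had 5.05 times as many counts and was not called (0.13, edgeR adjusted p = 0.276). SLC2A8 (GLUT8), an intracellular transporter, averaged 31.6 ± 1.88 CPM in siTCF19 and 32.9 ± 3.73 CPM in siNC (SD, n = 3 each) and was not called (-0.06, 95% interval -0.23 to 0.11). The insulin-responsive SLC2A4 (GLUT4) had 4, 0 and 5 counts in siTCF19, against 8, 13 and 7 in siNC, and SLC2A3 (GLUT3) had 0 to 1 counts in siTCF19 and 0 to 2 in siNC. Neither passed the filter, and SLC2A3 lay under the floor of 3 counts in every library.

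Among the hexokinases HK2 fell, while HK1 was not called. HK2, the inducible mitochondrial-bound hexokinase often raised in tumours (ENSG00000159399, chromosome 2, 74833981 to 74893359, plus strand), had 60.4, 63.8 and 64.0 CPM in the siTCF19 libraries, against 131, 138 and 121 CPM in the siNC libraries. The highest siTCF19 library lay below every siNC library, and HK2 fell with a log2 fold change of -1.05 ± 0.06 (SE, 95% interval -1.17 to -0.94, edgeR adjusted p = 6.5e-19). HK1, the hexokinase of most tissues, had 96.1, 93.4 and 101 CPM in siTCF19, against 102, 105 and 108 CPM in siNC, and was not called (-0.12, 95% interval -0.23 to -0.01, edgeR adjusted p = 0.0792). It was called lower without siTCF19 replicate 3 (edgeR adjusted p = 0.0461). HKDC1, a further hexokinase family member, averaged 1.74 ± 0.376 CPM in siTCF19 and 1.75 ± 0.0970 CPM in siNC, with a wide interval (-0.62 to 0.59).

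By FPKM, the hexokinase gene with the largest share was not the same in both groups. HK2 made up 39.0, 40.7 and 39.2% of the hexokinase FPKM in the siTCF19 libraries, against 56.5, 57.2 and 53.3% in the siNC libraries. HK1 took 59.7, 57.4 and 59.4% in siTCF19 and 42.4, 41.8 and 45.7% in siNC. By this measure, HK1 was the larger share in each siTCF19 library and HK2 in each siNC library. The ranking rests on the exonic lengths, 6296 bases for HK1 and 6064 for HK2. The lengths of the transcripts made in these cells were not tested, so which gene was more abundant is uncertain. The lower share of HK2 in siTCF19 than in siNC is a comparison within 1 gene length. An exact two-sided permutation test over libraries gave p = 0.1 for both shares, the smallest value that 3 against 3 can give. In all, 27 shares, 16 summed levels and the summed level of the whole list were compared in this way, and none can pass 0.05. The smallest exact permutation p adjusted over them was 0.142. The ratio of LDHA to LDHB, given below, lies outside this adjustment. The summed hexokinase level was 26.1 ± 0.728 FPKM in siTCF19, against 38.5 ± 1.13 FPKM in siNC.

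GPI, which converts glucose 6-phosphate to fructose 6-phosphate (ENSG00000105220, chromosome 19, 34359480 to 34402413, plus strand), had 574, 577 and 614 CPM in siTCF19, against 798, 863 and 793 CPM in siNC. No siTCF19 library reached the lowest siNC library, and GPI fell by 0.47 ± 0.04 on the log2 scale (SE, edgeR adjusted p = 5.27e-12).

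Of the 3 phosphofructokinase genes, whose products form the tetramers that commit sugar to glycolysis, 2 fell and 1 was not called. The liver-type subunit gene PFKL, the most abundant of them, had 184, 173 and 195 CPM in siTCF19, against 198, 217 and 199.9 CPM in siNC, and fell (-0.16 ± 0.05, SE, edgeR adjusted p = 0.0117). The groups did not overlap, but the call was not made without siNC replicate 2 (edgeR adjusted p = 0.102), without siTCF19 replicate 2 (0.101), with scaling by library size alone (0.118) or on the log2(FPKM + 1) scale (0.0774, limma-trend). The muscle-type PFKM averaged 87.9 ± 4.46 CPM in siTCF19 and 103 ± 7.55 CPM in siNC (SD, n = 3 each) and fell (-0.23, edgeR adjusted p = 0.0015). The platelet-type PFKP averaged 15.7 ± 0.438 CPM in siTCF19 and 14.1 ± 1.64 CPM in siNC and was not called (0.16, 95% interval -0.06 to 0.38). PFKL kept 57.4 ± 1.57% of the phosphofructokinase FPKM in siTCF19 and 57.5 ± 0.591% in siNC, a difference within the spread (exact permutation p = 0.9).

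Fructose 2,6-bisphosphate, the strongest activator of phosphofructokinase, is made and broken down by the PFKFB enzymes, and their genes diverged. PFKFB3, the isoenzyme with the highest kinase activity (ENSG00000170525, chromosome 10, 6144934 to 6254644, plus strand), had 59.6, 59.8 and 66.0 CPM in the siTCF19 libraries, against 128, 144 and 134 CPM in the siNC libraries. Its siTCF19 values were all less than the lowest siNC value, and the log2 fold change of -1.13 ± 0.06 (SE, 95% interval -1.25 to -1.01, edgeR adjusted p = 9.83e-20) was the largest fall in the list. PFKFB2, an isoenzyme first known from heart, had 48.8, 53.3 and 48.7 CPM in siTCF19, against 38.4, 35.5 and 36.7 CPM in siNC, and rose (0.45 ± 0.07, SE, edgeR adjusted p = 1.11e-06). The hypoxia-inducible PFKFB4 averaged 13.9 ± 0.442 CPM in siTCF19 and 16.7 ± 1.33 CPM in siNC and fell (-0.27, edgeR adjusted p = 0.0357). It had the highest adjusted p of the 19 falls, and the call was not made by DESeq2 (adjusted p = 0.0807), without a filter (0.0632, edgeR), with scaling by library size alone (0.108), on the log2(FPKM + 1) scale (0.0865), or after leaving out siTCF19 replicate 1 (0.103), 2 (0.051) or 3 (0.1), or siNC replicate 2 (0.158) or 3 (0.0816).

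PFKFB3 remained the most abundant of the 3 in every library. Its share of their summed FPKM was 58.1, 56.4 and 60.7% in the siTCF19 libraries, against 76.9, 78.6 and 77.5% in the siNC libraries. PFKFB2 took 28.5, 30.1 and 26.9% in siTCF19, against 13.9, 11.6 and 12.7% in siNC. The groups did not overlap in either share (exact permutation p = 0.1 each). Summed over the 3 genes, the level was 17.3 ± 0.515 FPKM in siTCF19 and 28.5 ± 1.40 FPKM in siNC, the lowest ratio (0.608) of the 16 functional groups.

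**Figure D2:**
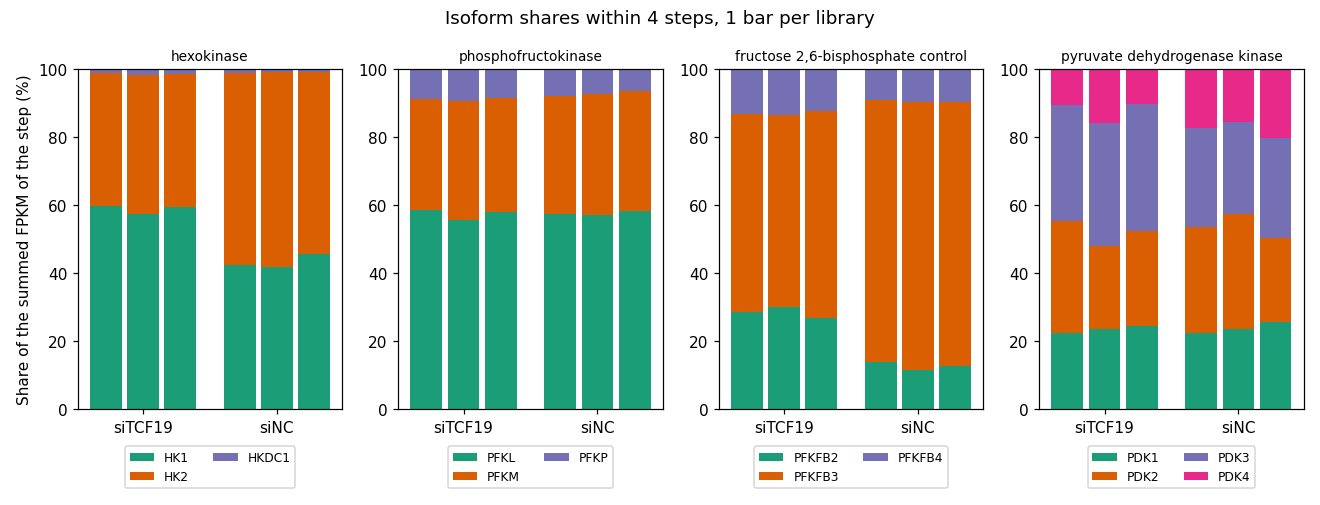
Each bar is 1 library and shows, in percent, how the summed FPKM of a group divides among its genes, for hexokinases, phosphofructokinases, PFKFB enzymes and pyruvate dehydrogenase kinases, with the siTCF19 libraries left of the siNC libraries. The HK2 share lies between 39.0% and 40.7% in siTCF19 and between 53.3% and 57.2% in siNC, while the PFKL share averages 57.4% in siTCF19 and 57.5% in siNC.

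The aldolase values carry a counting limit. ALDOA, the main aldolase of most tissues, had 21.4, 18.6 and 20.4 CPM in siTCF19, against 19.0, 17.8 and 18.3 CPM in siNC, and was not called (0.13, 95% interval -0.06 to 0.33). At 5.15 FPKM in siTCF19 and 4.70 FPKM in siNC it lay far below its neighbours in the pathway, TPI1 and GAPDH. In the annotation that the table follows, 93.8% of the coding bases of ALDOA are also exons of another gene on the same strand, AC093512.2, which had 80 to 92 counts per library in siTCF19 and 57 to 72 in siNC. No source used here says how the counting treated reads that match both genes, so the ALDOA value is uncertain and cannot be read as its level. ALDOC, the brain-type aldolase, averaged 6.77 ± 0.722 CPM in siTCF19 and 8.41 ± 0.409 CPM in siNC and was not called (-0.31, edgeR adjusted p = 0.0754).

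From triose phosphate to pyruvate, the abundant enzymes other than PGAM1 fell. TPI1, which interconverts the triose phosphates (ENSG00000111669, chromosome 12, 6867119 to 6870948, plus strand), had 974, 894 and 995 CPM in siTCF19, against 1103, 1148 and 1079 CPM in siNC (-0.22 ± 0.04, SE, edgeR adjusted p = 5.81e-05). GAPDH, which oxidises glyceraldehyde 3-phosphate and is often used as a reference transcript (ENSG00000111640, chromosome 12, 6533927 to 6538374, plus strand), had 2356, 2226 and 2359.8 CPM in siTCF19, against 2875, 3055 and 2973 CPM in siNC (-0.36 ± 0.04, SE, edgeR adjusted p = 3.43e-10). PGK1, the first ATP-making enzyme of the pathway (ENSG00000102144, chromosome X, 77910739 to 78129296, plus strand), had 360.0, 355 and 345 CPM in siTCF19, against 425, 417 and 414 CPM in siNC (-0.24 ± 0.04, SE, edgeR adjusted p = 1.12e-05). In all 3 the highest siTCF19 library lay below the lowest siNC library. GAPDH was the most abundant transcript of the list, at 776 FPKM in siTCF19 and 996 FPKM in siNC. Processed copies can share reads with these genes: the table holds 62 GAPDH pseudogenes, whose counts summed to 0.753% of those of GAPDH, and the highest such share among the tested members was 1.25%, for TPI1. Since the handling of reads that match several genes is not stated, these percentages cannot show how many reads were shared or dropped. Of the GAPDH exonic bases, 14.2% overlap AC006064.4 on the other strand, which had 0 counts.

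PGAM1, the phosphoglycerate mutase of glycolysis, had 373, 394 and 412 CPM in siTCF19, against 426, 424 and 405 CPM in siNC. The groups overlapped, and PGAM1 was not called (-0.09, 95% interval -0.18 to 0.00, edgeR adjusted p = 0.108), although it was called lower without siTCF19 replicate 3 (edgeR adjusted p = 0.0382). PGAM5, a mitochondrial protein phosphatase of the same family that has no place in glycolysis, averaged 178 ± 5.72 CPM in siTCF19 and 226 ± 4.93 CPM in siNC and fell (-0.34, edgeR adjusted p = 1.32e-07).

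Enolase, which makes phosphoenolpyruvate, showed opposite directions among its genes. ENO1, the ubiquitous enolase (ENSG00000074800, chromosome 1, 8861000 to 8879250, minus strand), had 1353, 1348 and 1402 CPM in the siTCF19 libraries, against 2043, 2194 and 2024 CPM in the siNC libraries, and fell (-0.61 ± 0.04, SE, 95% interval -0.69 to -0.53, edgeR adjusted p = 2.74e-16). ENO2, the neuronal enolase also found in many tumour lines (ENSG00000111674, chromosome 12, 6913745 to 6923698, plus strand), had 40.1, 36.3 and 37.5 CPM in siTCF19, against 21.9, 26.0 and 23.7 CPM in siNC, and rose (0.67 ± 0.08, SE, 95% interval 0.51 to 0.84, edgeR adjusted p = 6.36e-09). Neither gene overlapped between the groups. The muscle enolase ENO3 averaged 15.0 ± 1.62 CPM in siTCF19 and 18.7 ± 2.06 CPM in siNC and fell (-0.33, edgeR adjusted p = 0.0117), a call not made without siNC replicate 2 (0.11), without siTCF19 replicate 1 (0.119) or on the log2(FPKM + 1) scale (0.0685, limma-trend). ENO3 overlaps 111 exonic bases of PFN1 on the other strand, a gene with 32.3 times as many counts that also fell (-0.38).

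ENO2 remained a small part of enolase. It took 3.48, 3.16 and 3.15% of the enolase FPKM in the siTCF19 libraries, against 1.29, 1.42 and 1.41% in the siNC libraries (exact permutation p = 0.1, the smallest possible). ENO1 still made up 95.5 ± 0.112% in siTCF19, against 97.6 ± 0.154% in siNC. Summed enolase was 272 ± 5.67 FPKM in siTCF19, against 406 ± 18.5 FPKM in siNC.

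PKM, the pyruvate kinase gene of most proliferating cells (ENSG00000067225, chromosome 15, 72199029 to 72231822, minus strand), had 1354, 1283 and 1378 CPM in siTCF19, against 1672, 1768 and 1695 CPM in siNC, and fell without overlap (-0.36 ± 0.04, SE, edgeR adjusted p = 1.16e-09). Its splice forms, which differ in how the enzyme is regulated, cannot be told apart in counts per gene.

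**Figure D3:**
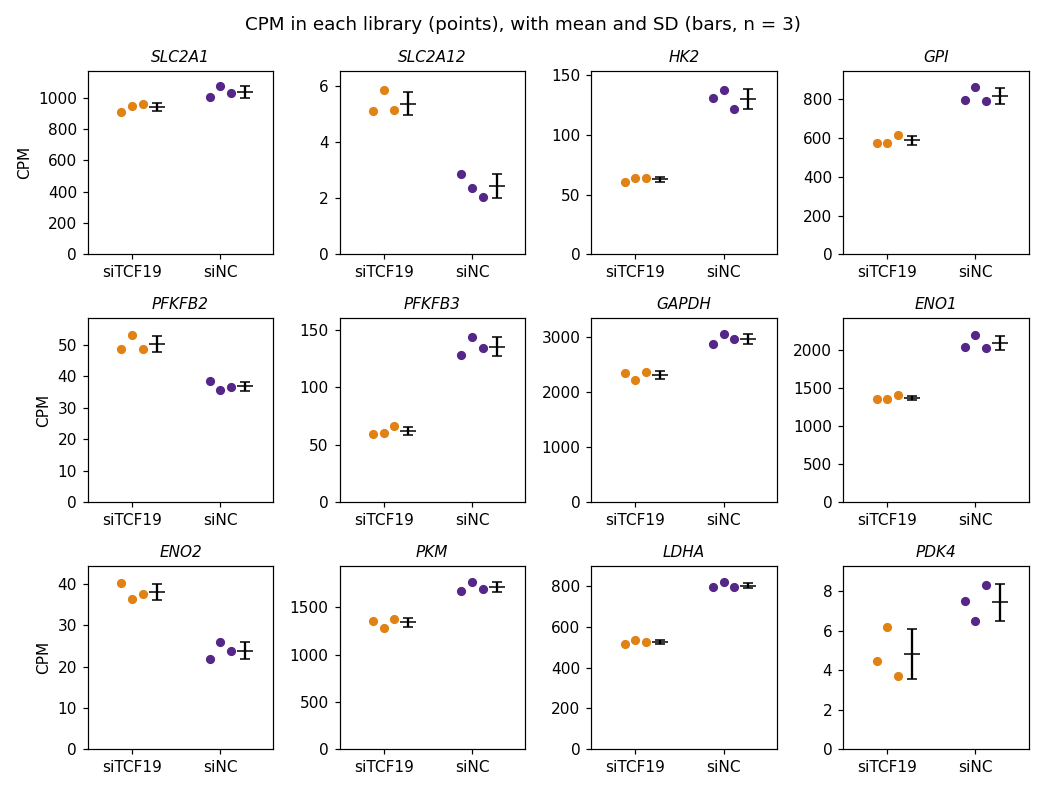
CPM of 12 genes is plotted per library, with siTCF19 left of siNC and bars for the mean and SD of 3 libraries. SLC2A12, PFKFB2 and ENO2 are higher in siTCF19, the other 9 are lower, and no gene shown overlaps between the groups.

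Both lactate dehydrogenase genes fell. LDHA, whose product favours making lactate (ENSG00000134333, chromosome 11, 18394388 to 18408425, plus strand), had 517, 535 and 523 CPM in the siTCF19 libraries, against 791, 816 and 794 CPM in the siNC libraries (-0.61 ± 0.04, SE, 95% interval -0.69 to -0.52, edgeR adjusted p = 7.19e-16). LDHB, the heart-type subunit (ENSG00000111716, chromosome 12, 21635342 to 21757857, minus strand), had 39.7, 33.7 and 38.0 CPM in siTCF19, against 61.2, 56.8 and 54.5 CPM in siNC (-0.63 ± 0.07, SE, 95% interval -0.77 to -0.49, edgeR adjusted p = 1.02e-09). Every siTCF19 library was below every siNC library for both genes. LDHB carries the same limit as ALDOA: 93.5% of its coding bases are also exons of AC010197.2 on the same strand, which had 0 to 1 counts per library in siTCF19 and 1 to 2 in siNC. Its level, and so the ratio of the subunits, is uncertain. As counted, LDHA exceeded LDHB in FPKM by 6.83 ± 0.707 times in siTCF19 and 6.70 ± 0.432 times in siNC (SD, n = 3 each), a difference within the spread (exact permutation p = 0.9).

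Both lactate transporters fell. SLC16A1 (MCT1), the more abundant of the pair, had 179, 191 and 180.0 CPM in siTCF19, against 223, 215 and 219 CPM in siNC (-0.26 ± 0.05, SE, edgeR adjusted p = 2.01e-05), with no overlap between the groups. SLC16A3 (MCT4), the exporter typical of strongly glycolytic cells, averaged 74.5 ± 3.67 CPM in siTCF19 and 84.5 ± 5.06 CPM in siNC and fell (-0.18, edgeR adjusted p = 0.012). Its call was not made without siNC replicate 2 (edgeR adjusted p = 0.0909), without siTCF19 replicate 1 (0.0926), with scaling by library size alone (0.0946) or on the log2(FPKM + 1) scale (0.0703, limma-trend). BSG (basigin), the membrane partner that carries both transporters to the cell surface, averaged 1505 CPM in siTCF19 and 1526 CPM in siNC and was not called (log2 fold change -0.02).

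Among the pyruvate dehydrogenase kinases, PDK4 alone was called, though a difference from the others was not tested. PDK4, the kinase induced by fasting and fatty acids, had 4.49, 6.21 and 3.74 CPM in siTCF19, against 7.49, 6.49 and 8.34 CPM in siNC. The siTCF19 libraries were all lower, at 58 to 93 counts each against 102 to 130 (-0.63 ± 0.17, SE, 95% interval -0.98 to -0.28, edgeR adjusted p = 0.00262). PDK3, the kinase with the highest mean FPKM over all libraries, had 16.0, 15.4 and 14.6 CPM in siTCF19, against 13.8, 12.2 and 13.3 CPM in siNC, and was not called (0.23, edgeR adjusted p = 0.0853), but was called higher with scaling by library size alone (0.0283). The HIF target PDK1 averaged 30.3 CPM in siTCF19 and 32.9 CPM in siNC (-0.12, 95% interval -0.28 to 0.04). By CPM, PDK1 was the highest of these kinases. The ranking by FPKM, and the shares built on it, rest on the exonic lengths, 14883 bases for PDK1 and 4951 for PDK3. The lengths of the transcripts made in these cells were not tested, so which kinase gene was more abundant is uncertain. PDK2 averaged 13.5 CPM in siTCF19 and 15.1 CPM in siNC (-0.16, 95% interval -0.42 to 0.10), and was called lower without siTCF19 replicate 1 (edgeR adjusted p = 0.0396). Of the PDK2 exonic bases, 38.6% overlap SAMD14 on the other strand.

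PGM1, which links glucose 6-phosphate to glycogen, had 112, 115 and 113 CPM in siTCF19, against 105, 101 and 106 CPM in siNC. Its siTCF19 libraries were all higher, at a log2 fold change of 0.13 ± 0.05 (SE) that was just short of a call (edgeR adjusted p = 0.0504). PGM1 was called higher with RLE scaling (0.0481), upper-quartile scaling (0.0392), scaling by library size alone (0.0035), a filter of at least 1 CPM (0.0448) and on the log2(FPKM + 1) scale (0.0317, limma-trend).

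Summed per functional group, 13 of 16 groups were lower in every siTCF19 library than in any siNC library, and 1, the glycogen branch with PGM1 as its single member, was higher. Among all tested genes, 49.2% did not overlap between the groups of libraries, in either direction. This background is for single genes in CPM, and none is given here for summed groups. GPI, TPI1, GAPDH, PGK1 and PKM each form a functional group alone, so those groups repeat the values of the genes. The phosphoglycerate mutase group is among the 13 through PGAM5, since PGAM1 by itself overlapped between the groups. Aldolase and the pyruvate dehydrogenase kinases overlapped. Enolase fell to 269, 268 and 278 FPKM in the siTCF19 libraries, against 396, 427 and 394 FPKM in the siNC libraries, and lactate dehydrogenase to 96.6, 97.5 and 97.0 FPKM, against 148, 150.4 and 146 FPKM. These had ratios of 0.670 and 0.655, close to the 0.678 of hexokinase, while glucose entry had a ratio of 0.911.

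**Figure D4:**
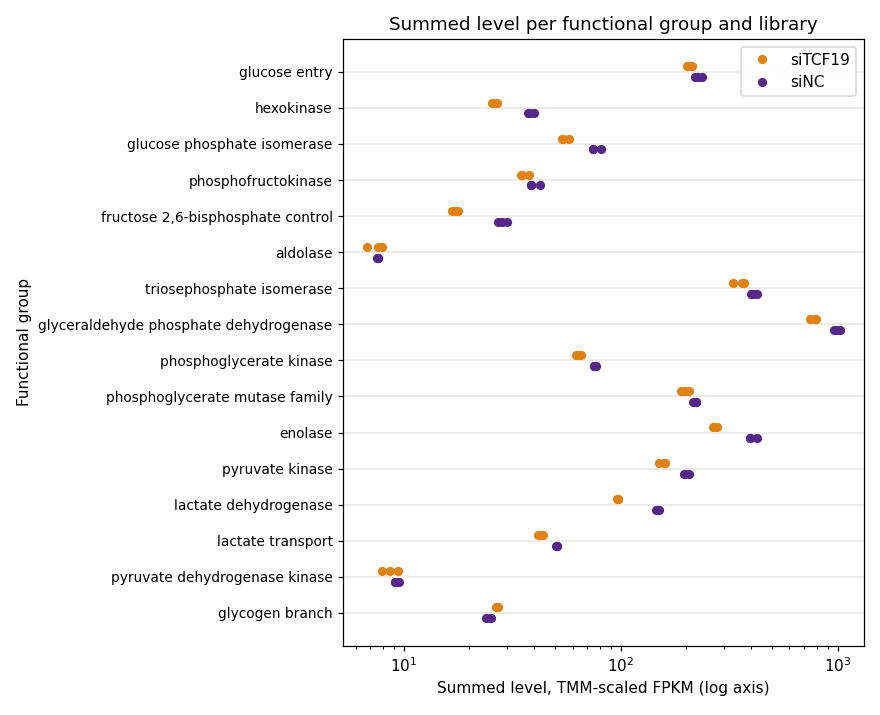
Summed FPKM of each functional group is plotted per library on a log axis, with siTCF19 drawn above siNC in each row. The siTCF19 points lie left of the siNC points in 13 groups, right of them for the glycogen branch, and overlap for aldolase and the pyruvate dehydrogenase kinases.

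Promoter windows from RefSeq (GRCh38.p14, 250 bases before to 50 after the RefSeq start, which can differ from the gene start given above) were available for 31 of the 35 genes, and not for SLC2A3, SLC2A4, PFKFB2 and SLC16A1. They were searched on both strands for ACGTG or GCGTG, the core of the element bound by hypoxia-inducible factors, and for CACGTG, an E-box bound by MYC and ChREBP among others. Each CACGTG holds an overlapping ACGTG on either strand. A core was found in 14 of the 18 windows of called-lower genes and in 5 of the 13 other windows, 61.3% of all 31, beside 60.0% of the windows of tested genes and 48.4% of all 35116 windows. No such split by call is given here for all tested genes. Each gene has 1 window, and whether its start is the one used in these cells was not tested. The bases G and C made up 56.7% (GPI) to 78.3% (PFKL) of the called-lower windows. In the other windows they made up 36.3% (PDK1) to 75.0% (ENO2). The part of this difference in the split was not tested. CACGTG was in 3 windows, those of ALDOC, GAPDH and LDHA, beside 9.30% of the windows of tested genes. The windows of the 2 genes with the largest falls, of LDHA, which holds the most matches (6 cores, counted on each strand, and 2 E-boxes), and of ENO2, which rose, are shown with the core in capitals.
HK2 (chr2:74833877-74834176, plus strand): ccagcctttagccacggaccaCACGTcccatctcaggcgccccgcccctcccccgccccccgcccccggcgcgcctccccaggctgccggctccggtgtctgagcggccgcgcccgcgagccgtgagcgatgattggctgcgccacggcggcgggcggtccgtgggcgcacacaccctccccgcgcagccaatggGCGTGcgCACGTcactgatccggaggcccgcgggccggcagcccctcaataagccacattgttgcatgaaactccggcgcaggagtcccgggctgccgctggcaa
PFKFB3 (chr10:6144671-6144970, plus strand): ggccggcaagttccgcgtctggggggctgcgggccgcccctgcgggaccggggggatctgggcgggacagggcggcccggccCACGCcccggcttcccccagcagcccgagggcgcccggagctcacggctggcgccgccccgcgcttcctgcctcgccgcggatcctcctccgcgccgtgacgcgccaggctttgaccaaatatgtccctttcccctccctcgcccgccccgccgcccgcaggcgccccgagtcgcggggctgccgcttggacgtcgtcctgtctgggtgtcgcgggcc
LDHA (chr11:18394313-18394612, plus strand): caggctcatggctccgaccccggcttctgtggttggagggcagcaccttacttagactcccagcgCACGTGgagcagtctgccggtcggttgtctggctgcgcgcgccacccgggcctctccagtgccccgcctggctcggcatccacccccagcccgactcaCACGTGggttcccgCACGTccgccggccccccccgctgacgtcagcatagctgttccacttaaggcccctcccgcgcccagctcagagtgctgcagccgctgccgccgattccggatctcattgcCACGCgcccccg
ENO2 (chr12:6914330-6914629, plus strand): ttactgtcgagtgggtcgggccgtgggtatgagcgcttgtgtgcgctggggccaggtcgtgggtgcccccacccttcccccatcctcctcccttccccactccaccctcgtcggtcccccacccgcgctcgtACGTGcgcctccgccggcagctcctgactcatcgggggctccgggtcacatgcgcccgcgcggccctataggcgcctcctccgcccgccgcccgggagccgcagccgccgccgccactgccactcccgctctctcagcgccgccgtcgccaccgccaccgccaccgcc
The window of HK2 holds 3 cores and those of PFKFB3 and ENO2 hold 1 each. A match describes letters in the window and is not a shown binding site.

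The words TGGTCAA and GGTCAAA in 3' UTRs had been related to lower levels in an earlier examination of these data. Of the tested genes with an annotated 3' UTR of at least 50 bases, 13.0% carried either word in the longest one. Of these carriers 31.5% fell and 21.6% rose, beside 23.5% and 24.2% of the other genes. Because the words were related to lower levels in these same libraries, this difference is not a separate test of them. Of the 33 tested members, PDK1 and PDK2 carried a word, and neither was called.

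Lists of genes that surround the pathway were counted in the same way. Their counts stand beside 20.8% lower and 20.7% higher among all tested genes, and no list was tested against these shares. Of 7 tested among 16 other isoenzymes, 2 rose (1 without siTCF19 replicate 1) and 1 fell, with a median log2 fold change of 0.08. The fall was in LDHD, which acts on D-lactate in mitochondria (-0.55, 9.39 CPM in siTCF19 and 13.7 CPM in siNC). Of 8 tested among 14 other transporters and their partners, 3 rose and 0 fell, with a median of 0.22. There 1 rose without siTCF19 replicate 2 or by DESeq2, and 1 fell without siNC replicate 1 or siNC replicate 2. Of 10 genes that carry pyruvate into mitochondria, oxidise it or regulate its oxidation, 6 fell and 2 rose, with a median of -0.15. The regulators are PDP1, PDP2 and PDPR, and PDP2 and PDPR are among the 6 falls. The pyruvate carrier genes parted, with MPC2 lower (-0.36) and MPC1 higher (0.45), and PDHB, a subunit of pyruvate dehydrogenase, fell (-0.40). MPC1, MPC2 and PDHB were chosen for mention after their values were seen. The falls numbered 3 without siNC replicate 3 or with scaling by library size alone, and 1 gene rose without siNC replicate 2, siNC replicate 3 or siTCF19 replicate 2.

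Of 8 gluconeogenesis and fructose bisphosphatase genes, 6 were tested, 4 fell (2 without siTCF19 replicate 1) and 0 rose, with a median of -0.20. Of 12 tested among 13 glycogen and nucleotide sugar genes, 7 fell and 2 rose, with a median of -0.32. PYGL, the liver glycogen phosphorylase, fell to 57.1 CPM in siTCF19, against 96.1 CPM in siNC (-0.75). Of 10 genes of the shuttles that carry cytosolic NADH equivalents into mitochondria, 4 fell and 1 rose, with a median of -0.12. SLC25A11, the malate and oxoglutarate carrier, fell to 98.5 CPM in siTCF19, against 168 CPM in siNC (-0.77), and GOT1, the cytosolic aspartate aminotransferase, to 64.5 CPM, against 94.8 CPM (-0.56).

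Among 17 regulators of glycolysis genes, 7 rose and 6 fell, with a median of 0.12 (4 rose without siTCF19 replicate 1 and on the log2(FPKM + 1) scale). MYC, a direct activator of several glycolysis genes, fell to 89.4 CPM in siTCF19, against 239 CPM in siNC (-1.42, edgeR adjusted p = 3.04e-25). TXNIP, which restrains glucose uptake, rose to 166 CPM in siTCF19, against 113 CPM in siNC (0.56, edgeR adjusted p = 3.03e-12). EPAS1, the hypoxia-inducible factor HIF2A, rose to 24.1 CPM in siTCF19, against 10.9 CPM in siNC (1.14, edgeR adjusted p = 3.96e-12). HIF1A averaged 310.4 CPM in siTCF19 and 219.6 CPM in siNC and rose by 0.50, a gene named after its value was seen. The part of these regulators in the changes of the pathway genes was not tested.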

How the data were processed

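RNA-seq libraries of Ishikawa cells, 3 siTCF19 and 3 siNC, were compared, grouped by sample title. The submitters' processing notes name HISAT2 2.0.5, featureCounts 1.5.0-p3 and the build hg38. No source used here states the strand setting or the handling of reads that match several genes. The authors deposited 1 table with, per the file headers, per-library read counts and FPKM, the normalized signal averaged by group, and for each gene a p-value beside a log2 fold change. FPKM in the text was recomputed from the deposited counts, exon lengths and TMM factors, and the deposited FPKM served as an alternative. Of 58735 identifiers, 58724 had the start and end of GENCODE release 29.

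Genes were kept by filterByExpr (17299) and tested with edgeR 4.0.16 in R 4.3.3 (TMM, glmQLFit, glmQLFTest, Benjamini-Hochberg over all tested genes), and called at an adjusted p under 0.05. Standard errors and 95% intervals come from that fit. Shares and summed levels were compared with exact permutation tests over libraries. A floor of 3 counts equals 0.190 to 0.206 CPM. Floors reflect counting error alone, because reads without molecular identifiers may be PCR copies. Libraries of a group differed by more than sampling noise (chi-square per degree of freedom of at least 2.21). Alternatives were other scalings and filters, DESeq2 1.42.0, limma 3.58.1 (voom, and trend on log2(FPKM + 1)), leaving out each library, a replicate block and a threshold of 0.01. The edgeR step was tested on simulated counts. The members and lists were chosen with earlier results of these data known. All members were named, with library values for those called at 0.5 or more on the log2 scale and for the most abundant of each group. From other lists, up to 4 called genes per list at that size and at least 5 CPM were named, apart from 1 that is not reported here.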

Additional observations from a re-analysis of the deposited data

How the results depend on the processing

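The number of members called lower was 19 and ran from 15 to 20 over the alternatives, with 15 under scaling by library size alone, on the log2(FPKM + 1) scale, at an adjusted p under 0.01 and without siNC replicate 2. The number called higher was 3. With PGM1 added, it was 4 under RLE scaling, upper-quartile scaling, a filter of at least 1 CPM and on the log2(FPKM + 1) scale. It was 5 with scaling by library size alone, which added PDK3 and PGM1. That scaling also moved the split over all tested genes to 16.4% lower and 26.1% higher, and their median log2 fold change to 0.06. Of the 22 called members, 17 kept their call and direction in all 16 alternatives, and PFKFB4, PFKL, ENO3, SLC16A3 and SLC2A1 lost it in some. No member changed sign with a call. The log2 ratio of the summed level of the list was -0.34, and -0.35 to -0.31 with 1 library left out. Same-numbered libraries did not deviate together (correlations 0.0086, -0.0241 and 0.021 over genes). These correlations cannot show whether such libraries were prepared together, which the labels do not say. With the replicate block 19 members were called lower and 3 higher. PDK2, not called, had 171 to 267 counts in the siTCF19 libraries and was called lower without siTCF19 replicate 1 (edgeR adjusted p = 0.0396).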
